A study of Mus musculus with 6 samples.

Results

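Melanocytes were taken from the CD45-negative skin libraries of the series as the barcodes in which pigment genes passed a set share of the RNA. A barcode was first kept as a cell when it held 500 or more UMIs (unique molecular identifiers, each standing for 1 captured RNA molecule) from 300 or more genes, with mitochondrial genes giving no more than 10% of them. It counted as a melanocyte when Dct, Mlana, Tyrp1 and Pmel together gave at least 0.2% of its UMIs and at least 3 UMIs, and when Sox10, Mitf and Kit together gave at least 1 UMI. Barcodes with 0.5% or more of their UMIs from Krt5 and Krt14, or with more than 5 Col1a1 UMIs, were left out. The rule found 599 barcodes among 23796 kept CD45-negative cells, in a series of 48101 barcodes. Melanocytes were thus selected on the measured UMIs of those 10 genes, whose values are given below as a description and support nothing else. The working name places these melanocytes in the hair follicle, but no gene of the rule marks a position in the skin, and follicular melanocytes cannot be told apart here from any others.

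Melanocytes are pigment cells that descend from the neural crest. In the body skin of mice they sit largely in hair follicles, where melanocyte stem cells in the upper follicle supply the melanocytes of the hair bulb, and these pass melanosomes filled with melanin to the keratinocytes that build the hair shaft. SOX10 and PAX3 switch on the gene of MITF, the factor that drives the genes of melanin synthesis, while KIT, EDNRB and MC1R are the receptors through which neighbouring cells act on melanocytes. The growing hair bulb is known for low levels of MHC class I, the molecules that show peptides to CD8 T cells, and interferon gamma raises these molecules in most cell types.

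The mice were female, 17 to 18 weeks old and untreated. The alopecia group carried a deletion of the enhancer upstream of Il2ra (named UP_Del in the labels), the gene of the alpha chain of the interleukin-2 receptor, and had lost hair. The no-alopecia group carried the deletion without hair loss, and the wild-type group was C57BL/6. The genotype field gives C57/BL6 for every sample, so the deletion is known from the titles alone. Whole skin without hypodermis was digested with Liberase and trypsin, live cells were sorted by the leukocyte surface protein CD45, and each sort of each group was captured as 1 library by a 10x Genomics assay that reads RNA from its capped end. The number of mice behind a library is not given in the sources used here. With 1 library per group there were no replicates and no test was made, so every interval below is a 95% interval for counting error only, and a difference between libraries cannot be told apart from a difference between the animals, digests or captures behind them.

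The alopecia, no-alopecia and wild-type CD45-negative libraries held 7123, 16751 and 4575 barcodes, and the filter removed 30.4%, 7.56% and 26.7% of them. Kept cells other than melanocytes had median depths of 5805, 5831 and 5228 UMIs in that order, while melanocytes were shallower, with medians of 3333, 1988 and 2534 UMIs. Summed over melanocytes, 739808 UMIs came from the alopecia library, 831665 from the no-alopecia library and 551202 from the wild-type library. The CD45-negative libraries shared 48 to 149 barcodes in pairs, and 1 melanocyte barcode occurred in both the no-alopecia and the wild-type library. Possible doublets were kept, because the automatic threshold of the doublet score marked only 2, 0 and 6 cells of the 3 libraries.

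The element best known to tie these genes to MITF is the M-box, a run of 10 bases given in capitals in the windows below, and the promoters that held it are shown because Dct and Tyrp1 chose the cells and Tyr leads the pigment results below. The M-box was searched on both strands of the 250 bases before each RefSeq gene start (build GRCm38.p6), and 51 of 32817 such windows (0.155%) held it. Of the 23 pigment genes of the rule and of the pigment list outside it, 17 had a window, and 3 held the M-box. The windows below run 5′ to 3′ along the strand of the gene, with the M-box in capitals.
Tyr, chr7:87493516-87493545, minus strand: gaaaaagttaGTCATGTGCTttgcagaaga
Tyrp1, chr4:80834155-80834184, plus strand: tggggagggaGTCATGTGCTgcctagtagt
Dct, chr14:118052379-118052408, minus strand: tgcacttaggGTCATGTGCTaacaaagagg
The last base of the M-box lay 14 bases before the RefSeq start of Tyr, 39 bases before that of Tyrp1 and 143 bases before that of Dct. The Tyr and Dct windows lay upstream of the annotated gene (chr7:87424771-87493512 and chr14:118012790-118052244 in GENCODE), while the GENCODE gene start of Tyrp1, chr4:80834123-80851719, lay before its window, so the element there falls inside the gene as GENCODE draws it. The shorter core CATGTG lies inside the M-box and reads CACATG on the other strand. It or the related CACGTG occurred in 9 of the 19 windows of the 17 pigment genes, in 8 genes. Of all windows, 17.6% held at least 1 of these cores. A match describes these letters and is no evidence of binding.

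Melanocytes took a smaller share of the CD45-negative cells in both deletion libraries than in the wild-type library, and the smallest share in the no-alopecia library. They made up 2.84% of kept cells with alopecia (141 of 4958, exact Clopper-Pearson interval 2.40% to 3.35%), 1.89% without alopecia (293 of 15484, 1.68% to 2.12%) and 4.92% in wild type (165 of 3354, 4.21% to 5.71%). None of the 3 intervals overlapped. The share with alopecia was 1.5 times that without (interval 1.22 to 1.84) and 0.578 times the wild-type share (0.458 to 0.728), and the share without alopecia was 0.385 times the wild-type share (0.317 to 0.468).

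A share of this kind depends on which other cells the digest released. Per 1000 fibroblast cells there were 125 melanocytes with alopecia, 117 without and 222 in wild type. Per 1000 keratinocytes there were 118 with alopecia, 41.9 without and 286 in wild type. Beside fibroblasts the deletion libraries lay close to each other, and beside keratinocytes the no-alopecia library lay lowest, where keratinocytes numbered 6996, against 1192 in the alopecia library and 577 in the wild-type library. How far the yield of other cells sets the melanocyte share was not tested.

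**Figure D1:**
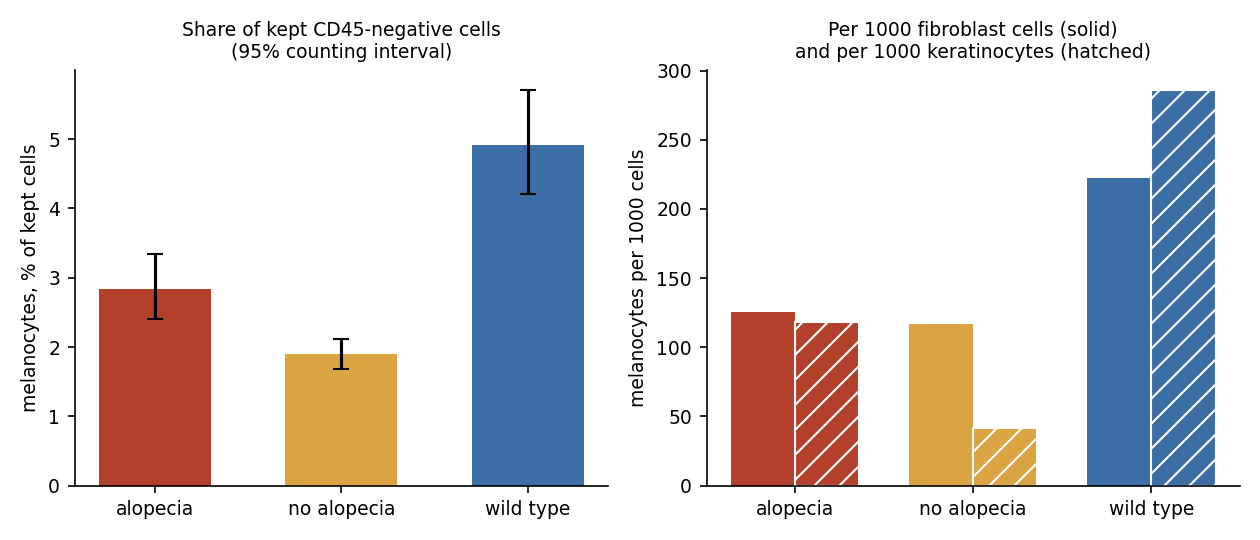
Left, melanocytes as a percentage of kept CD45-negative cells in the alopecia, no-alopecia and wild-type libraries, with exact 95% counting intervals; right, melanocytes per 1000 fibroblast cells (solid) and per 1000 keratinocytes (hatched). The wild-type bar is the highest by each measure, and the alopecia and no-alopecia bars are close only beside fibroblasts (125 and 117).

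Once pigment genes had been asked for, the no-alopecia library lost the most barcodes to the later steps of the rule, by number and by share. The pigment share and the minimum of 3 UMIs selected 155 barcodes with alopecia, 359 without and 176 in wild type, and the demand for Sox10, Mitf or Kit left 151, 329 and 168 in the same order. The keratin limit left 144, 297 and 165, and the Col1a1 limit gave the final counts. Just inside the threshold, at 0.2% to 0.3% of UMIs, lay 2, 38 and 11 melanocytes of the alopecia, no-alopecia and wild-type libraries, and 5, 24 and 6 barcodes that met the other conditions lay just outside it, at 0.1% to 0.2%. The no-alopecia melanocytes were thus the most crowded at the threshold, and they were also the shallowest.

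The rule genes were high in all 3 libraries, and 3 of the 4 pigment genes were highest with alopecia. Levels are given as CPM, the UMIs of a gene summed over the melanocytes of a library and scaled to the same total in each library. Dct, the dopachrome tautomerase of eumelanin synthesis, had 7486 CPM with alopecia, 5241 CPM without and 6809 CPM in wild type. Pmel, which forms the fibrils that melanin settles on, had 4363, 2547 and 2642 CPM in the same order, and Tyrp1, an enzyme of eumelanin synthesis, had 2272, 1240 and 1925 CPM. Mlana, a melanosome protein, was the exception in these sums, with 1103 CPM with alopecia, 1005 CPM without and 1504 CPM in wild type. Its log2 ratio of alopecia over wild type, -0.45, ran from -0.64 to 0.35 under other processing settings and turned in sign in 3 of 13. The regulators varied less: Sox10 had 477, 445 and 472 CPM, Mitf 691, 779 and 709 CPM, and the receptor gene Kit 802, 767 and 898 CPM, each in the order alopecia, no alopecia and wild type.

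The pigment content of single melanocytes spread over more than an order of magnitude within each library. The rule's pigment genes took between 0.2% and 4.42% of a cell's UMIs with alopecia (median 1.21%), between 0.201% and 5.39% without (median 0.711%) and between 0.2% and 6.38% in wild type (median 0.814%). Pigment and melanosome genes outside the rule took medians of 0.872%, 0.792% and 0.709% of UMIs in the same libraries. Across cells of a library the 2 shares had Spearman correlations of 0.585 over 141 cells with alopecia, 0.587 over 293 without and 0.539 over 165 in wild type, as a description, since both are counted from the same barcode and library.

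A few deep barcodes carried much of the summed RNA. Melanocytes with 10000 or more UMIs numbered 17 with alopecia, 13 without and 4 in wild type, and held 42.0%, 21.8% and 16% of all melanocyte UMIs in that order. The deepest of all were an alopecia cell of 41555 UMIs and a wild-type cell of 38238 UMIs, both rich in pigment genes. A level summed over cells therefore leans on such cells, and values over cells weighted alike are given below for some of the results that they change.

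**Figure D2:**
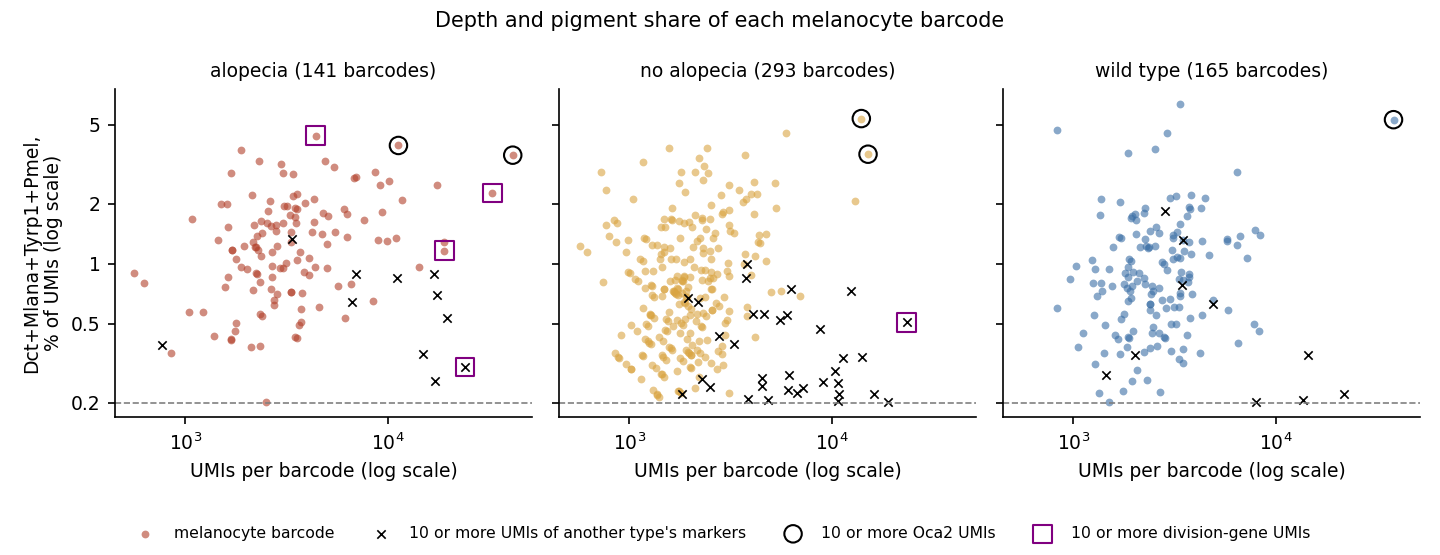
Each point is 1 melanocyte barcode, by its UMIs (x axis, log scale) and the percentage of UMIs from Dct, Mlana, Tyrp1 and Pmel (y axis, log scale), with the 0.2% threshold dashed. Crosses mark the 11, 34 and 10 barcodes (alopecia, no alopecia, wild type) with 10 or more UMIs of another cell type's markers, circles those with 10 or more Oca2 UMIs and squares those with 10 or more UMIs of division genes; crosses lie mostly at high depth and low pigment share.

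Markers of other cell types were found in a minority of these barcodes. At least 10 UMIs of another type's marker list were held by 11 melanocytes with alopecia, 34 without and 10 in wild type, which carried 18.9%, 30.3% and 13.8% of the summed UMIs. Keratinocyte markers made up most of this by barcodes, as 10, 29 and 6 barcodes had 10 or more UMIs of them. These counts of barcodes left out some list members, among them Sfn, Notch3 and Mylk. The sums that follow are of the full lists over all melanocytes. Keratinocyte markers gave 1995, 3798 and 811 UMIs in the order alopecia, no alopecia and wild type. Mural (blood vessel wall) markers gave 238, 664 and 227 UMIs, but only 0, 1 and 0 barcodes had 10 or more UMIs of the mural markers counted. A single wild-type barcode held nearly all of 5478 red cell UMIs in that library, against 5 with alopecia and 2 without. Leukocyte markers were near 0, with 2, 10 and 6 UMIs over 13 genes, and Ptprc, the gene of CD45 itself, had 0 UMIs in the melanocytes of every library. Values without the barcodes of mixed markers, an alternative chosen after seeing the data, stand below where they move a result.

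Genes that the rule did not use also set these barcodes apart from all other kept cells of the same libraries, again as a description. The 20 genes with the highest ratio in the library where it was lowest had log2 ratios there of 7.60 to 8.95, and 4 of them were the rule's pigment genes. Slc45a2, a melanosome transporter, led with 230 CPM with alopecia, 117 CPM without and 169 CPM in wild type, against 0.159, 0.236 and 0.0846 CPM in other kept cells. Syt4, a synaptotagmin of vesicle release, had 362, 191 and 199.6 CPM, and Mcoln3, an ion channel of endosomes, 479, 486 and 464 CPM. Others in the set were Tyr, Gpr143, Oca2, Mc1r, Trpm1, Pax3, Slc24a5, Tspan10, Car14, Alx1, Gsta1 and Ptgds.

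Schwann cells, the glial relatives of melanocytes that also use SOX10, were taken by glial markers among barcodes that did not meet the melanocyte rule. Among 38, 75 and 24 Schwann cells of the alopecia, no-alopecia and wild-type libraries, Tyr, Slc45a2, Mlana and Pmel all had 0 CPM, while Tyrp1 had 182, 134 and 237 CPM. The levels of Mlana, Pmel and Tyrp1, which are genes of the rule, were set in part by that choice and are given as a description only. In the other direction Cdh19, a cadherin of glia and melanocytes, was found in melanocytes at 138, 80.6 and 90.7 CPM.

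The main comparison asks how melanocytes of mice with hair loss differed from those of mice with the deletion and intact hair. Among 5795 genes with at least 60 melanocyte UMIs over the 3 libraries, 86 (1.48%) were at least 2-fold higher with alopecia than without and 153 (2.64%) at least 2-fold lower, 4.12% in all. Against wild type, 134 of 5797 genes (2.31%) were 2-fold higher with alopecia and 133 (2.29%) lower (4.61% in all), and without alopecia 152 of 5799 (2.62%) were higher than wild type and 119 (2.05%) lower (4.67% in all). The median log2 ratio of all genes was 0.01, -0.02 and -0.02 in these comparisons. They share libraries, so they are not independent of one another, and each is given by its own values.

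RNA of pigment and melanosome genes outside the rule was higher with alopecia than without. The list held 19 enzymes, transporters and structural proteins of the melanosome, of which 15 reached the count minimum. Their median log2 ratio was 0.53 for alopecia over no alopecia, with 3 at least 2-fold higher and 0 lower, and the same 15 genes had a median of 0.05 in all other kept cells. The summed UMIs of the list had a log2 ratio of 0.24 in melanocytes for that comparison. Against wild type the median was -0.05 with alopecia, with 0 genes past 2-fold, and -0.53 without alopecia, with 0 higher and 4 lower. With every cell weighted alike the medians were 0.38, 0.41 and 0.01 in the same order of comparisons, so the sign against wild type depended on the weight given to deep cells. Without melanocytes above 5% mitochondrial UMIs the median for alopecia over no alopecia was 0.070, so the difference between the deletion libraries for the list as a whole rested in part on the cells between 5% and 10%.

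Tyrosinase, the enzyme that starts melanin synthesis, is a member of that list whose ratios with alopecia lay above the list medians. Tyr had 741 CPM with alopecia (548 UMIs), 374 CPM without (311 UMIs) and 488 CPM in wild type (269 UMIs). By these sums the alopecia level was the highest and the no-alopecia level the lowest. The log2 ratios were 0.99 (0.78 to 1.19) for alopecia over no alopecia and 0.60 (0.39 to 0.82) over wild type. A single wild-type cell gave 161 of the 269 UMIs, the deepest alopecia cell for Tyr 120 of 548 and the deepest no-alopecia cell 61 of 311. Without the 2, 2 and 1 melanocytes holding 10 or more Oca2 UMIs, an alternative chosen after seeing the data, the log2 ratio of Tyr was 0.91 for alopecia over no alopecia and 1.24 over wild type. The lowest Tyr level was then that of wild type.

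The share of melanocytes with a Tyr UMI is free of that weighting. After each cell had been thinned to 2000 UMIs, 52.6% of 116 alopecia melanocytes had a Tyr UMI (43.1% to 61.9%), against 37.5% of 144 without alopecia (29.6% to 45.9%) and 36.6% of 112 in wild type (27.7% to 46.2%). The intervals of alopecia and wild type overlapped, as did those of alopecia and no alopecia. Unthinned, the shares were 61.7%, 35.5% and 40.0% in the same order, and 25, 149 and 53 shallower melanocytes had been left out of the thinning. In fibroblasts, which should lack the gene and had median depths of 3855, 3320 and 3935 UMIs, 0%, 0.201% and 0% of thinned cells had one.

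Transporters of the melanosome followed with the same order in part. Slc45a2 (230, 117 and 169 CPM in alopecia, no alopecia and wild type) had a log2 ratio of 0.98 (0.61 to 1.35) between alopecia and no alopecia, and 27.6%, 13.9% and 21.4% of thinned melanocytes had a UMI of it. Slc24a5, a potassium-dependent sodium and calcium exchanger, had 257, 178 and 261 CPM, and Trpm1, a channel gene of melanocytes, 395, 251 and 586 CPM. Of the wild-type Trpm1 UMIs, 1 cell gave 261 of 323, and over cells weighted alike the log2 ratio of alopecia over wild type was 0.30 in place of -0.57. Gpr143, the melanosome receptor linked to ocular albinism in humans, had 74.3, 56.5 and 107 CPM, and its ratios of alopecia to each of the other libraries had intervals that included no difference. Under other processing settings the log2 ratio of alopecia over wild type ran from -0.84 to 0.62 for Gpr143 and from -0.28 to 0.51 for Slc24a5.

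Oca2 and Slc24a4 stood out for being found in a handful of cells. Oca2, the pink-eyed dilution transporter that sets melanosome pH, had 136 UMIs with alopecia, 34 without and 72 in wild type, from 4, 3 and 3 cells, and the top cell of each library gave 118, 17 and 70 of them. Slc24a4, another exchanger gene, had 48, 15 and 30 UMIs, also from 4, 3 and 3 cells. Their log2 ratios for alopecia over no alopecia, 2.17 and 1.85, rest on those few cells, and became -0.74 and -2.15 when cells above 5% mitochondrial UMIs were left out. Melanocytes with 10 or more Oca2 UMIs were deep, with median depths of 26434, 14574.5 and 38238 UMIs, and had 3.73%, 4.47% and 5.32% of their UMIs from the rule's pigment genes.

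Some abundant melanosome genes differed little between the libraries. Cd63, a tetraspanin that sorts PMEL into melanosomes, had 2387, 2448 and 2525 CPM in alopecia, no alopecia and wild type, with log2 ratios of -0.04 to -0.08 whose intervals all included 0. Ptgds, a prostaglandin synthase and a MITF target, had 3368 and 3245 CPM with and without alopecia, below 4292 CPM in wild type (log2 ratios -0.35 and -0.40). Gpnmb, a melanosome glycoprotein, had 1711, 1199 and 1297 CPM. Rab38, a GTPase that carries tyrosinase to the melanosome, had 112 CPM with alopecia, 43.3 CPM without and 122 CPM in wild type, a log2 ratio of 1.37 (0.79 to 1.98) between alopecia and no alopecia. Under other processing settings the log2 ratio of alopecia over wild type ran from -0.50 to 0.04 for Ptgds and from -0.40 to 0.72 for Rab38.

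**Figure D3:**
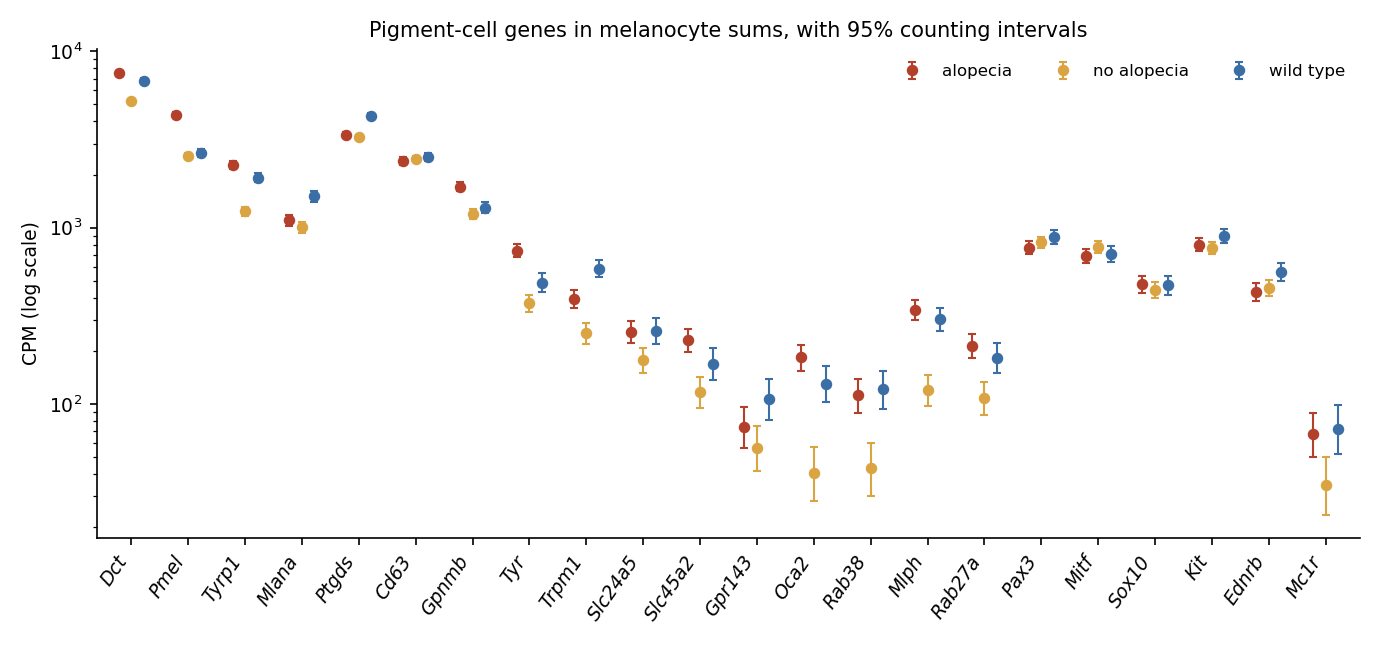
CPM (log scale) of pigment-cell genes summed over the melanocytes of the alopecia, no-alopecia and wild-type libraries, left to right within each gene, with exact 95% Poisson intervals. By these sums Dct, Tyrp1, Tyr, Rab38, Mlph and Rab27a lie lowest in the no-alopecia library, while Cd63, Mitf and Sox10 are level. The rule's 4 pigment genes had a median log2 ratio of -0.48 for no alopecia over wild type. That median was -0.05 with cells weighted alike and -0.07 without Oca2-rich cells.

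Genes of melanosome transport were lowest in the no-alopecia library in a few cases. Of 32 members 20 reached the count minimum, with median log2 ratios of 0.27 for alopecia over no alopecia (1 gene higher, 0 lower), -0.01 for alopecia over wild type (0 and 0) and -0.19 for no alopecia over wild type (0 higher, 2 lower). In all other kept cells the same genes had a median of 0.31 for alopecia over no alopecia, so the list moved alike there. The gene past 2-fold was Mlph, which links melanosomes to the motor myosin Va. It had 342 CPM with alopecia, 120 CPM without and 303 CPM in wild type, a log2 ratio of 1.51 (1.17 to 1.86) between alopecia and no alopecia and of -1.33 (-1.71 to -0.97) for no alopecia over wild type. It was found in 93 of 141, 60 of 293 and 88 of 165 melanocytes, counted without thinning, so its UMIs were spread over many cells. Other kept cells had only 2.07, 0.806 and 1.52 CPM. Their log2 ratios were 1.36 for alopecia over no alopecia and -0.92 for no alopecia over wild type, so Mlph lay the same way there.

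The partners of Mlph in that complex lay the same way with smaller differences. Rab27a, the GTPase that anchors the complex to the melanosome, had 214, 108 and 183 CPM in alopecia, no alopecia and wild type, with a log2 ratio of 0.98 (0.60 to 1.37) between alopecia and no alopecia. Myo5a, the motor itself, had 741, 596 and 780 CPM and a log2 ratio of 0.31 (0.13 to 0.49). Ostm1, which with Mlph made up the genes lower at 2-fold without alopecia than in wild type, had 36.5, 24.0 and 56.2 CPM and the widest interval of these genes.

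The transcription factors of the lineage stayed close between libraries, with lower values for a few with alopecia. Of 20 members outside the rule 15 reached the count minimum, and the medians were -0.10 for alopecia over no alopecia (0 past 2-fold), -0.27 for alopecia over wild type (0 higher, 1 lower) and -0.18 for no alopecia over wild type (0 past 2-fold). Pax3, which acts with SOX10 on Mitf, had 772, 825 and 887 CPM, and 64.7%, 67.4% and 71.4% of thinned melanocytes had a UMI of it. Foxd3, a neural crest factor that holds back pigment genes, had 94.6 CPM with alopecia, 168 CPM without and 154 CPM in wild type. Its log2 ratios were -0.83 (-1.27 to -0.41) and -0.70 (-1.18 to -0.23) for alopecia over no alopecia and over wild type. Tfap2b, a partner factor of the lineage, had 172, 250 and 294 CPM, lowest with alopecia as Foxd3 was, but highest in wild type.

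Sox9, a factor of hair follicle stem cells and of early pigment cells, was the member past 2-fold, with 32.4, 54.1 and 102 CPM in alopecia, no alopecia and wild type. Only 10, 24 and 18 melanocytes held a UMI of it, and other kept cells had 118 to 128 CPM. Without the barcodes of mixed markers its log2 ratio for alopecia over wild type was -3.11 in place of -1.65. Irf4, which binds the Tyr promoter together with MITF in human melanocytes, had 104, 81.8 and 127 CPM, and its ratios of alopecia to each of the other libraries had intervals that included no difference.

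Receptors and their signalling genes showed no common direction. Of 31 members 20 reached the count minimum, with medians of 0.02, -0.12 and -0.28 in alopecia over no alopecia, alopecia over wild type and no alopecia over wild type. Ednrb, the endothelin receptor of melanocytes, had 433, 455 and 561 CPM, and 48.3%, 52.8% and 48.2% of thinned melanocytes had a UMI of it. Mc1r, the receptor for melanocyte-stimulating hormone, had 67.6, 34.9 and 72.6 CPM, from 16, 15 and 7 cells. Its log2 ratio of -1.06 for no alopecia over wild type became 0.77 without the Oca2-rich cells, since 1 wild-type cell gave 34 of its UMIs.

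Fgfr1, a receptor for fibroblast growth factors, had 51.4 and 84.2 CPM in the alopecia and no-alopecia libraries, above 16.3 CPM in wild type, where 9 cells held 1 UMI each. The log2 ratios were 1.65 (0.58 to 2.89) and 2.37 (1.36 to 3.55), and 1.25 and 1.48 without the barcodes of mixed markers. With cells weighted alike they were 0.97 and 1.03. Il2ra, the gene next to the deleted enhancer, had 0 UMIs in the melanocytes of all 3 libraries, which allows, at 2000 UMIs a cell, shares of up to 3.13%, 2.53% and 3.24% of melanocytes with a UMI in alopecia, no alopecia and wild type (upper exact bounds; 3 counts of the cells thinned give 2.59%, 2.08% and 2.68%).

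Cdkn1a and Cdkn1c were lower with alopecia than without, and division genes were found in a few alopecia cells. Of 20 genes of survival and stem cell state 11 reached the count minimum, with medians of -0.47 for alopecia over no alopecia (0 higher, 2 lower), -0.22 over wild type and 0.08 for no alopecia over wild type (0 past 2-fold in both). The lower pair was Cdkn1a, the p53 target that halts the cycle, with 242, 570 and 417 CPM in alopecia, no alopecia and wild type, and Cdkn1c, a related inhibitor, with 16.2, 45.7 and 30.8 CPM. Over wild type the log2 ratio of Cdkn1a was -0.79, and -0.22 with cells weighted alike. The log2 ratios of Cdkn1a and Cdkn1c for alopecia over no alopecia were -1.24 (-1.49 to -0.99) and -1.49 (-2.57 to -0.53). Bcl2, which protects melanocyte stem cells from death, had 331 and 327 CPM in the deletion libraries, below 419 CPM in wild type.

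Of 27 cell cycle genes 9 reached the count minimum, with 3 higher and 0 lower for alopecia over no alopecia (median 0.43, and -0.11 without cells of 10000 or more UMIs). In all other kept cells the same genes had a median of 0.34. Mki67, a marker of dividing cells, had 69 melanocyte UMIs with alopecia, 4 without and 0 in wild type, at least 17.1-fold higher with alopecia than in wild type when the floor of 3 UMIs stands for its sum. Just 4 alopecia cells held all 69. With 10 or more UMIs of division genes there were 4 of 141 melanocytes with alopecia (2.84%, 0.778% to 7.1%), 1 of 293 without (0.341%) and 0 of 165 in wild type (upper exact bound 2.21%), and the intervals overlapped. Of the 4 alopecia cells 3 held under 10 UMIs of any other type's markers, and the single no-alopecia cell held more. Their median depth was 21609 UMIs, though 1 was far shallower, and together they held 10.9% of the alopecia melanocyte UMIs. Genes such as Stmn1 (178, 74.5 and 99.8 CPM) and Tubb5 (479, 274 and 227 CPM) were higher with alopecia by the sums, but by 0.35 and 0.31 (log2) over no alopecia with cells weighted alike.

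Antigen presentation and interferon response genes were lower in alopecia melanocytes than in those of either other library. Of 23 MHC class I presentation genes 18 reached the count minimum, with medians of -0.77 for alopecia over no alopecia (0 higher, 4 lower), -0.36 for alopecia over wild type (0 higher, 4 lower) and 0.17 for no alopecia over wild type (1 higher, 0 lower). In all other kept cells the same genes had medians of -0.45, -0.04 and 0.43, so a difference of the same sign between alopecia and no alopecia was also present in the rest of the libraries. Summed over the list, melanocytes had 3985 CPM with alopecia, 6216 CPM without and 5568 CPM in wild type, fibroblasts 5506, 6697 and 5258 CPM, and keratinocytes 5123, 6327 and 5556 CPM.

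H2-K1 and H2-D1, the classical class I heavy chains of this strain, had 515 and 1061 CPM with alopecia, 1104 and 1854 CPM without, and 878 and 1814 CPM in wild type. Their log2 ratios for alopecia over no alopecia were -1.10 (-1.28 to -0.93) and -0.81 (-0.93 to -0.68), and both were -0.77 over wild type. H2-Q6 and H2-Q7, nonclassical class I genes, were lower still with alopecia (log2 -2.08 and -1.54 over no alopecia). Reads of these near-identical genes can be split between copies, so the single values are uncertain. B2m, the light chain common to all of them, had 858 CPM with alopecia, 1277 CPM without and 1121 CPM in wild type, and its log2 ratios of -0.57 (-0.72 to -0.43) and -0.39 (-0.55 to -0.22) do not have that limit. Psmb8, a subunit of the immunoproteasome, had 18.9, 81.8 and 43.5 CPM in the same order, while Canx, a chaperone of class I folding, had 238, 197 and 207 CPM.

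Interferon gamma targets lay the same way. Of 28 listed genes, 27 of them in the files, 13 reached the count minimum, with medians of -0.50 for alopecia over no alopecia (0 higher, 5 lower), -0.53 for alopecia over wild type (0 higher, 4 lower) and 0.10 for no alopecia over wild type (0 past 2-fold). Other kept cells had medians of -0.19, -0.16 and 0.09 for the same genes. In keratinocytes alone, where 20 genes of the list reached the count minimum, the median for alopecia over no alopecia was -0.60 with 0 higher and 6 lower, and in fibroblasts it was -0.01. Summed over the list, log2 ratios for alopecia over no alopecia and over wild type were -0.74 and -0.61 in melanocytes. The sums gave -0.44 and -0.22 in all other kept cells and -0.41 and -0.23 in keratinocytes. In fibroblasts they gave -0.16 and -0.19, and in Schwann cells 0.22 and -0.40. Irgm1, a GTPase of defence within cells, had 60.8 CPM with alopecia, 137 CPM without and 129 CPM in wild type in melanocytes, against 13.2, 14.4 and 15.1 CPM in other kept cells. Gbp7, a guanylate-binding protein, had 10.8, 50.5 and 47.2 CPM, and Iigp1, another GTPase of this family, 5.41, 51.7 and 67.1 CPM. The Iigp1 UMIs came from 1 cell with alopecia, 17 without and 8 in wild type, and log2 ratios were -3.26 (-5.20 to -1.80) and -3.63 (-5.58 to -2.16) for alopecia over no alopecia and over wild type.

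Irf1, a factor that acts on class I genes, had 52.7, 124 and 107 CPM in alopecia, no alopecia and wild type. The log2 ratio of Irf1 for alopecia over no alopecia, -1.23, was -0.48 with cells weighted alike and -0.019 with pigment genes at 0.4% of UMIs or more. Cd274, the gene of the checkpoint ligand PD-L1, had 59.5, 99.8 and 87.1 CPM in melanocytes against 5.07, 6.48 and 7.11 CPM in other kept cells, so melanocytes stood above the rest in each library.

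Type I interferon targets were lower with alopecia in melanocytes, and other cell types differed among themselves. Of 28 listed genes, 26 of them in the files, 8 reached the count minimum, with medians of -0.75 for alopecia over no alopecia (0 higher, 3 lower), -0.66 for alopecia over wild type (0 higher, 3 lower) and 0.17 for no alopecia over wild type, while other kept cells had 0.03, 0.02 and -0.02. Isg15, a ubiquitin-like protein, had 14.9 CPM with alopecia, 61.3 CPM without and 63.5 CPM in wild type, against 25, 31 and 29.8 CPM in other kept cells. Ifi27 had 40.6, 95 and 87.1 CPM in melanocytes, and Rtp4 16.2, 52.9 and 34.5 CPM. Summed over the list, melanocytes had 500.1, 794 and 718 CPM in alopecia, no alopecia and wild type, fibroblasts had 831, 800 and 713 CPM, highest with alopecia, and keratinocytes had 343, 425 and 316 CPM, highest without. Over all other kept cells the sums were 425, 495 and 409 CPM, a log2 ratio of -0.22 for alopecia over no alopecia, beside -0.67 in melanocytes. With cells weighted alike Rtp4 was level with wild type (log2 ratio -0.15).

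Fewer alopecia melanocytes held any such transcript at equal depth. After thinning to 2000 UMIs, 78.4% of 116 alopecia melanocytes had a UMI of either interferon list (69.9% to 85.5%), against 93.8% of 144 without alopecia (88.5% to 97.1%) and 92.0% of 112 in wild type (85.3% to 96.3%). The intervals of alopecia and wild type overlapped. Unthinned, the shares were 88.7%, 91.8% and 92.1%. Thinned fibroblasts of the same libraries had shares of 94.4%, 95.8% and 96.2%, so nearly all of them held a UMI. Thinned keratinocytes had 79.2%, 85.5% and 80.8%. With the type I list alone the thinned melanocyte shares were 58.6%, 73.6% and 67.9%, and all intervals overlapped. Fibroblasts had 74.9%, 75.5% and 71.5%, lowest in wild type, and keratinocytes 45.4%, 52.2% and 48.7%, lowest with alopecia. With the interferon gamma list alone the melanocyte shares were 62.9%, 75.7% and 81.25%, and only alopecia and wild type did not overlap. Fibroblasts had 80.2%, 85.4% and 85.7% and keratinocytes 64.2%, 72.3% and 66.4%, both lowest with alopecia. At 5 or more UMIs of either list the melanocyte shares were 18.1%, 31.25% and 25.9%, and all intervals overlapped. Fibroblasts then had 33.3%, 38.4% and 37.1% and keratinocytes 6.97%, 13.2% and 8.81%, again lowest with alopecia. Leaving out the barcodes of mixed markers gave medians of -0.75 and -0.74 for the interferon gamma list and -0.87 and -0.65 for the type I list, for alopecia over no alopecia and over wild type. With cells weighted alike the type I median over wild type was -0.18 and that over no alopecia -0.52. Without cells of 10000 or more UMIs the type I medians were -0.35 over no alopecia and -0.23 over wild type, and with pigment genes at 0.4% of UMIs or more the interferon gamma median over no alopecia was -0.18.

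**Figure D4:**
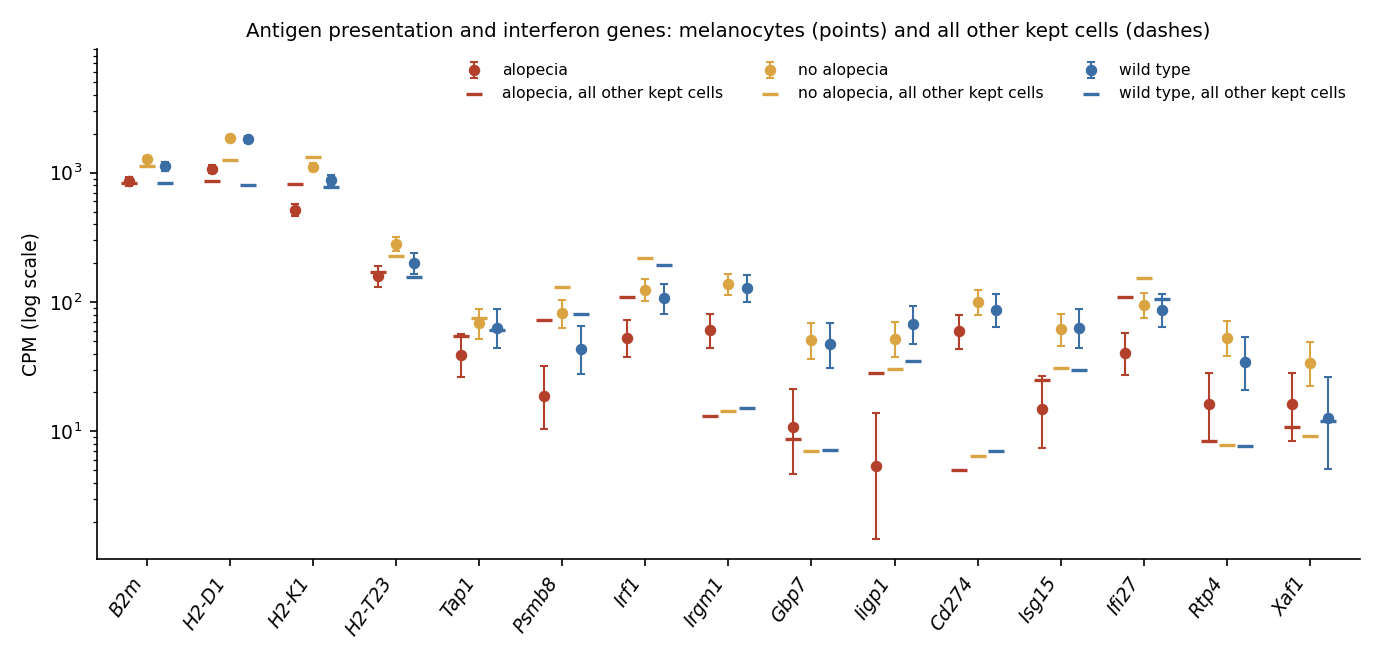
CPM (log scale) of antigen presentation and interferon genes in melanocytes (points with exact 95% Poisson intervals) and in all other kept cells (dashes) of the alopecia, no-alopecia and wild-type libraries, left to right. The alopecia melanocytes lie lowest for Gbp7, Iigp1, Isg15 and Rtp4, at 5.41 to 16.2 CPM, where other kept cells differ little between libraries.

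Other signals to immune cells were sparse. None of the MHC class II genes or the ligands of the receptor NKG2D reached the count minimum, and Cd74, the class II chaperone, had 0, 9 and 1 UMIs in alopecia, no alopecia and wild type. Of 28 genes of immune privilege and regulation 7 reached it, with medians of -0.12, 0.31 and 0.57 in alopecia over no alopecia, alopecia over wild type and no alopecia over wild type. Pvr, a ligand of the receptors CD226 and TIGIT, had 9.46 CPM with alopecia, 45.7 CPM without and 30.8 CPM in wild type. Cd200, an inhibitory ligand, had 51.4, 86.6 and 38.1 CPM in that order. Lgals3, a galectin, was abundant at 3248 and 3487 CPM with and without alopecia, above 2202 CPM in wild type (log2 ratios 0.56 and 0.66).

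Immediate early genes were lower in alopecia melanocytes, and also in the other kept cells taken as a whole. Of 30 genes of this list, which respond within minutes to signals and also to tissue digestion, 29 reached the count minimum, with medians of -1.01 for alopecia over no alopecia (0 higher, 15 lower), -0.43 for alopecia over wild type (1 higher, 5 lower) and 0.46 for no alopecia over wild type (5 higher, 0 lower). Other kept cells had medians of -0.92, -0.37 and 0.37. Cell types differed in this: over no alopecia the list sum had a log2 ratio of -0.61 in keratinocytes and -0.35 in fibroblasts, and 0.30 in Schwann cells, which had 28706 CPM with alopecia, 23340 CPM without and 20266 CPM in wild type. Fos, a subunit of the factor AP-1, had 2652, 6144 and 4463 CPM in melanocytes of the alopecia, no-alopecia and wild-type libraries and 1507, 3058 and 2222 CPM in other kept cells. Atf3 had 762, 1888 and 931 CPM, and Zfp36, which shortens the life of messenger RNAs, 539, 1440 and 582 CPM. With cells weighted alike the median over no alopecia was -0.56. What part the digest had in this was not tested.

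Heat shock genes of the list had mixed values. Hspa8 had 1595, 1600 and 1524 CPM in alopecia, no alopecia and wild type, with intervals of every log2 ratio that included 0. Hspa1a and Hspa1b, near-identical copies whose single values are uncertain, had 754 and 868 CPM with alopecia, 851 and 695 CPM without, and 1034 and 1138 CPM in wild type. Hspb1, the gene higher at 2-fold with alopecia than in wild type, had 397, 570 and 122 CPM, but its log2 ratio of 1.71 was -0.48 without the barcodes of mixed markers and other kept cells had 1387 to 2139 CPM.

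**Figure D5:**
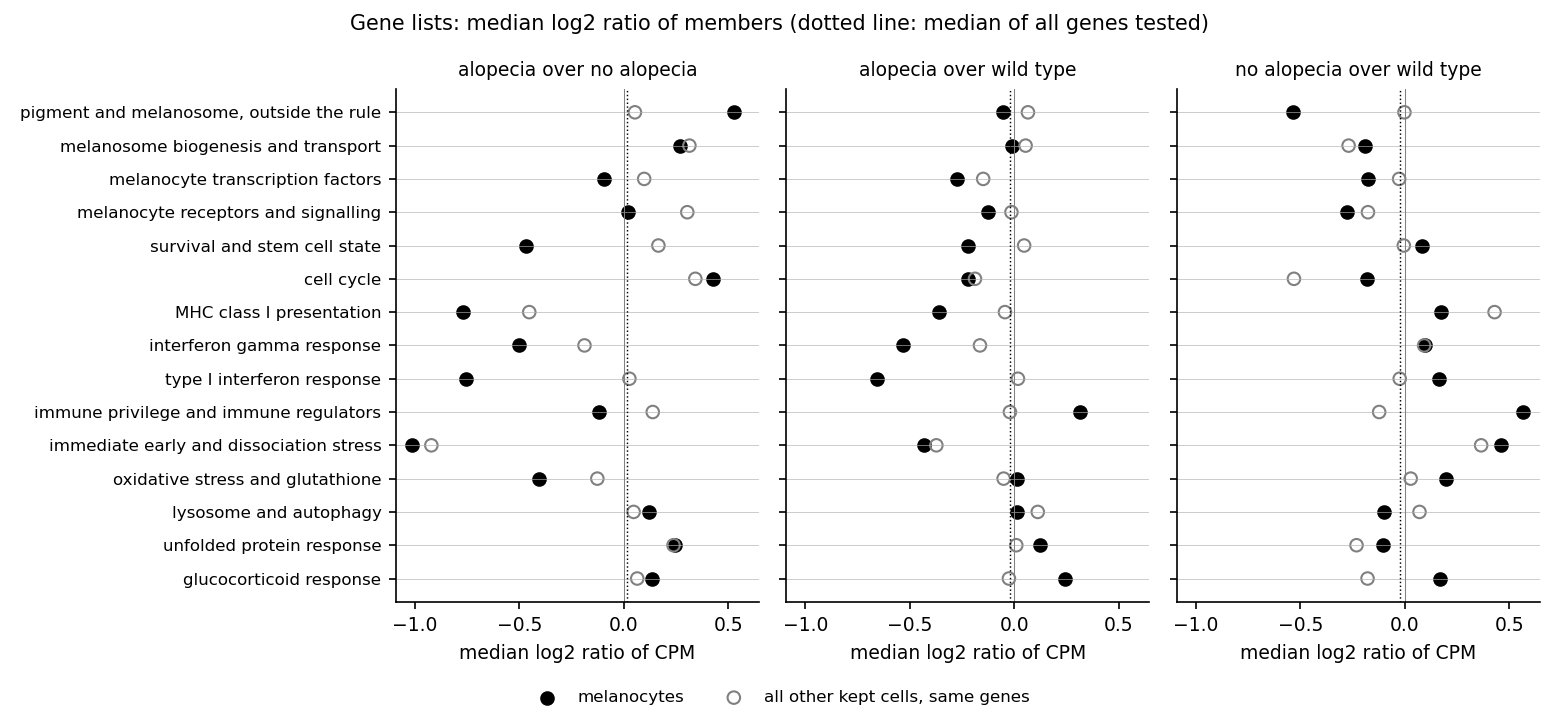
Median log2 ratio of the genes of each list that reached the count minimum, in melanocytes (filled) and in all other kept cells (open), for alopecia over no alopecia, alopecia over wild type and no alopecia over wild type; the dotted line is the median of all genes. The type I interferon list has -0.75 and -0.66 in melanocytes beside 0.03 and 0.02 in other cells, and the immediate early list has -1.01 beside -0.92.

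Single genes were also ranked by the bound of their ratio nearest to no difference, among genes of at least 100 CPM in the higher library whose level there was at least 30% of that in other kept cells. The first with alopecia over no alopecia was Cdo1, the cysteine dioxygenase that breaks down cysteine. It had 116 CPM with alopecia, 21.6 CPM without and 158 CPM in wild type, a log2 ratio of 2.43 (1.68 to 3.25) between alopecia and no alopecia and of -2.87 (-3.69 to -2.12) for no alopecia over wild type. The UMIs came from 49, 17 and 48 melanocytes with at most 6 in 1 cell, and other kept cells had 3.64, 1.89 and 2.84 CPM. Cdo1 thus lay low in the no-alopecia library and level in the other pair, as Mlph did. Atg4a, a protease of autophagy, had 111, 28.9 and 88.9 CPM in the same libraries.

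Most other genes higher with alopecia were higher in the other cells of the library too. Jarid2, Lars2, AY036118, Gphn and Gapdh had log2 ratios over no alopecia of 1.69, 1.19, 1.05, 1.07 and 1.11 in melanocytes and of 1.78, 1.07, 0.79, 1.41 and 0.93 in other kept cells. Camk1d, a kinase gene lower without alopecia than in wild type, had -1.29 in melanocytes and -1.53 in other cells. For these genes the ratios in melanocytes and in other cells were of like size. Slc15a2, a peptide transporter, had 104, 69.7 and 243 CPM in alopecia, no alopecia and wild type, and -1.80 and -1.18 in melanocytes and other cells for no alopecia over wild type.

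Several of the lower genes came from single no-alopecia cells. Acta2, Tagln and Tpm2, contractile genes of smooth muscle, had 94, 92 and 95 UMIs without alopecia, of which 1 cell gave 94, 78 and 85, against 0, 0 and 4 UMIs with alopecia and 0, 1 and 4 in wild type. Fabp4, a fatty acid carrier of fat and vessel cells, had 0, 101 and 16 UMIs, 99 of them from 1 no-alopecia cell. Id1, Cst6 and S100a6 lost most of their difference without the barcodes of mixed markers, with log2 ratios of -0.54, -0.59 and -0.53 in place of -2.61, -2.26 and -1.94. Defb6, a defensin first among the genes higher without alopecia than in wild type, had 84, 275 and 4 UMIs, and its log2 ratio of 5.51 became -0.70 without those barcodes. Cdh6, lower in both deletion libraries than in wild type, had 54 of 60 wild-type UMIs in 1 cell.

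Ier5 and Socs3 remained lower with alopecia without the mixed barcodes. Ier5, an immediate early gene, had 52.7, 199.6 and 185 CPM in alopecia, no alopecia and wild type, with log2 ratios of -1.92 (-2.46 to -1.41) and -1.81 (-2.38 to -1.27) in melanocytes and of -0.25 and -0.61 in other kept cells for alopecia over no alopecia and over wild type. Socs3, which curbs cytokine signalling, had 176, 551 and 354 CPM, with log2 ratios over no alopecia of -1.65 in melanocytes and -0.97 in other cells. Nr4a2, a nuclear receptor of the same early group, had 27.0, 95 and 111 CPM.

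Against wild type, alopecia melanocytes were higher in Vim, Anxa2 and Cpne4 and lower in Gpx3 and Csmd1. Vim, the intermediate filament of mesenchymal and pigment cells, had 4749 CPM with alopecia and 4492 CPM without, above 2683 CPM in wild type, a log2 ratio of 0.82 (0.74 to 0.91) for alopecia over wild type beside 0.38 in other kept cells. Anxa2, a membrane-binding annexin, had 547, 414 and 239 CPM, and Cpne4, a copine, 100.03, 40.9 and 32.7 CPM. Without cells of 10000 or more UMIs the log2 ratio of Cpne4 over wild type was 0.55 in place of 1.61. Hmgn2, a nucleosome-binding protein, had 168, 98.6 and 56.2 CPM, and without those cells its log2 ratio over wild type was 0.16 in place of 1.58. Gpx3, a glutathione peroxidase that cells secrete, had 135 CPM with alopecia, 245 CPM without and 611 CPM in wild type. Its log2 ratio over wild type was -2.18 (-2.51 to -1.85) with alopecia and -1.32 (-1.58 to -1.06) without, beside -1.10 and -1.85 in other kept cells. Csmd1, a large membrane protein that limits complement, had 142, 267 and 488 CPM, with -1.78 (-2.12 to -1.45) for alopecia over wild type and -0.10 in other kept cells.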

How the data were processed

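The authors' deposited 10x matrices hold UMI counts, not normalized, for 32285 genes, and Cell Ranger 7.1.0 and mm10 are named in the submitters' processing notes. Of 6 libraries, the 3 CD45-negative ones were used for every comparison, and groups came from the titles. Cells were filtered and chosen as the report states, counts were summed over melanocytes of a library and scaled to CPM, and intervals are exact (Poisson for levels, conditional binomial for ratios, Clopper-Pearson for shares), covering counting error only. A gene was called higher or lower at 2-fold if it had at least 60 UMIs over the 3 libraries' melanocytes. With a sum of 0, a floor of 3 UMIs was used. Depth was evened by thinning to 2000 UMIs. With 1 library per group no p-value was computed. Simulated-doublet scores (scanpy 1.11.5) removed barcodes only as an alternative, at 0.4% per 1000 barcodes. Named genes were the 10 each way with the interval bound farthest from no difference for alopecia against no alopecia, and 5 each way for the other comparisons. Of each list, the most abundant members, those past 2-fold and melanocyte genes were named, and Canx, Cd274, Hspa8, Hspa1a and Hspa1b were named after their values were seen. The melanocyte rule and the gene lists were chosen with earlier results of these data known. Python 3.11.15, numpy 2.4.6, scipy 1.17.1 and pandas 2.3.3 were used, and the scripts were tested on simulated data. The values were recomputed under 14 other settings, and under 3 more chosen after seeing the data. Some genes that met the rule for named genes are not reported here.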

Additional observations from a re-analysis of the deposited data

Results flagged for a closer look

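Barcodes that met the melanocyte rule were also found in the CD45-positive libraries, which no comparison uses. There were 28 of 9206 kept cells with alopecia (0.304%, exact interval 0.202% to 0.439%), 4 of 3278 without alopecia (0.122%, 0.0333% to 0.312%) and 17 of 6487 in wild type (0.262%, 0.153% to 0.419%). A Tyr UMI was held by 21, 2 and 6 of them, and a UMI of Ptprc, the gene of CD45, by 7, 0 and 7. Ptprc was found in 81.3%, 78.2% and 86.0% of the other kept cells of the same libraries.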

How the results depend on the processing

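No paired analysis was possible because each group had 1 library, and for the same reason no replicate could be left out. Shares without the cell filter were 2.19% with alopecia and 3.83% in wild type, and thinned to 1000 UMIs 2.17%, 1.46% and 3.84% in alopecia, no alopecia and wild type. With pigment genes at 0.4% they were 1.42% without alopecia and 4.11% in wild type, and the no-alopecia share was 2.12% with no keratin and Col1a1 limits and 1.67% without mixed-marker cells. The log2 ratio of shares was 0.24 (no cell filter) and 0.92 (pigment genes at 0.4%) for alopecia over no alopecia, and -1.05 (no cell filter) for no alopecia over wild type. Their order was the same in each of these. Counts of genes past 2-fold followed the count minimum: at 20 UMIs 388 higher and 480 lower for alopecia over no alopecia, 522 and 510 for alopecia over wild type, and 557 and 467 for no alopecia over wild type, and at 200 UMIs 16 and 48, 17 and 28, and 29 and 24. With pigment genes at 0.4%, 95 were lower for alopecia over no alopecia, 80 higher for alopecia over wild type and 94 higher for no alopecia over wild type. With cells weighted alike 130 were higher for alopecia over no alopecia and 182 lower for no alopecia over wild type. Without mixed-marker cells 56 were higher for alopecia over wild type and 68 for no alopecia over wild type. Without cells of 10000 or more UMIs 56, 60 and 73 were higher in the 3 comparisons and 79 lower for no alopecia over wild type. The pigment list's median was 0.070 for alopecia over no alopecia at 5% mitochondrial UMIs. For alopecia over wild type it was 0.41 with cells weighted alike and 0.51 without Oca2-rich cells, and for no alopecia over wild type 0.013, -0.046 and, without deep cells, -0.11. The immediate early median was -0.56 (cells weighted alike) and -0.67 (without deep cells) for alopecia over no alopecia and -0.73 (without mixed-marker cells) for alopecia over wild type. For no alopecia over wild type it was 0.12 (pigment genes at 0.4%), 0.15 (without mixed-marker cells) and 0.23 (without deep cells). For alopecia over no alopecia and over wild type, medians stayed negative under every setting that gave one: from -0.86 to -0.52 and from -0.39 to -0.23 for MHC class I, from -0.75 to -0.18 and from -0.74 to -0.39 for the interferon gamma list, and from -0.87 to -0.35 and from -0.75 to -0.18 for the type I list. Among ratios of 2-fold or more, signs turned for Oca2 (-0.74) and Slc24a4 (-2.15) at 5% mitochondrial UMIs in alopecia over no alopecia, and for Cdh6 (0.96) at 0.4% and Hspb1 (-0.48) without mixed-marker cells in alopecia over wild type. In no alopecia over wild type they turned for Cdh6 (0.93 at 0.4%, 0.51 without deep cells), Defb6 (-0.70) and Hspb1 (-0.94) without mixed-marker cells, Mc1r (0.21 with cells weighted alike, 0.77 without Oca2-rich cells, 0.51 without deep cells) and Ccnd2 (0.15 without deep cells). The cause was not tested in any of these. These are all 12 such turns among 4389 values for 340 single-gene ratios, and ratios under 2-fold, such as those of Trpm1 and Hspa8, turned in sign as well. Mixed-marker, Oca2-rich and deep cells were left out as alternatives chosen after seeing the data. Genes near 60 UMIs have wide intervals, and 1 library per group leaves the spread between animals unknown.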

Other observations

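Genes of protein folding in the endoplasmic reticulum included a pair that was higher with alopecia. Of 20 genes of the unfolded protein response 16 reached the count minimum, with a median log2 ratio of 0.24 for alopecia over no alopecia in melanocytes and in other kept cells, and of -0.13 in melanocytes without cells of 10000 or more UMIs. Sdf2l1, a chaperone partner, had 67.6 CPM with alopecia, 21.6 CPM without and 25.4 CPM in wild type. Creld2, another protein of the endoplasmic reticulum, had 59.5, 25.3 and 30.8 CPM in the same order.

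Of 26 genes of oxidative stress and glutathione 20 reached the count minimum, with medians of -0.41 for alopecia over no alopecia, 0.02 for alopecia over wild type and 0.20 for no alopecia over wild type. Txnrd1, the thioredoxin reductase, had 70.3 CPM with alopecia, 170 CPM without and 131 CPM in wild type, and Mt1, a metallothionein, 4772, 7015 and 6079 CPM. Glucocorticoid targets showed no common direction. Fkbp5, a co-chaperone of the glucocorticoid receptor, had 77.0, 38.5 and 127 CPM in melanocytes of the alopecia, no-alopecia and wild-type libraries and 107, 24.8 and 124 CPM in other kept cells. Sgk1, a kinase of the same response, had 71.6, 173 and 68.9 CPM in melanocytes. With pigment genes at 0.4% of UMIs or more its log2 ratio was -0.43 in place of -1.27 for alopecia over no alopecia, and 0.025 in place of 1.33 for no alopecia over wild type.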
